A study of Mus musculus with 12 samples.

Results

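The 9 genes examined belong to the interferon response and to MHC class I antigen presentation, and were read in mouse hepatocytes exposed to copper overload and a bile acid. They were Irf1, Irf7, Isg15, Ifit1, Ifit3, B2m, H2-K1, H2-D1 and Tap1, taken by gene symbol from a table of 24824 genes, and all 9 were found in it. The rule of the choice used no measured value, but the 9 genes were chosen with earlier results of these data known. AML12 is an established line of mouse hepatocytes that carries a human TGF-alpha transgene. Every group shared that background, and the results describe 1 cell line in monoculture. Group A was kept in growth medium alone, and CuCl2 at 300 µM was given to group B together with elesclomol, which carries copper into cells, at 40 nM (Cu/ES). Taurocholic acid (TCA), a conjugated bile acid, was added at 1000 µM to Cu/ES in group C and was given by itself at that dose in group D. Each group held 3 libraries of polyadenylated RNA taken after 24 h, numbered 1 to 3. The labels do not say whether these came from separate cultures, so p-values measure only the spread between these libraries, which may be technical.

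Interferons are secreted proteins that bind paired receptor chains (Ifnar1 with Ifnar2 for type I, Ifngr1 with Ifngr2 for type II), which act through JAK kinases and transcription factors to switch on interferon-stimulated genes. Irf1 and Irf7 are transcription factors of that response, Isg15 encodes a ubiquitin-like modifier, and Ifit1 and Ifit3 encode proteins that bind foreign RNA. MHC class I molecules carry peptides to the cell surface, where T cells read them: H2-K1 and H2-D1 encode the heavy chains, B2m the light chain shared by all class I molecules, and Tap1 with Tap2 the transporter that moves peptides into the endoplasmic reticulum. Hepatocytes carry class I molecules, and interferons are known to raise their amount.

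The start regions of these genes were searched for an exact spelling of the response element that interferon-activated factors are known to bind. The 250 bases before the start are shown for 5 genes on which the results turn. The sequences are RefSeq's for build GRCm38.p6, given 5′ to 3′ in the direction of the gene. The deposited values were made on GRCm39, so these coordinates belong to the sequences alone. All 9 genes had an entry, and for Irf1 and H2-K1, with 2 starts each, the first listed was used. Capitals mark GAAANNGAAA, a strict spelling of the interferon-stimulated response element, in Isg15 (3 overlapping matches) and B2m (1 match). Both strands were searched. In H2-K1 and H2-D1, which held no exact match, capitals mark the longest run that both regions share, of 47 bases. Variant spellings were not searched, so the lack of a match does not show that the element is absent.
Isg15, chr4:156200819-156201068, minus strand: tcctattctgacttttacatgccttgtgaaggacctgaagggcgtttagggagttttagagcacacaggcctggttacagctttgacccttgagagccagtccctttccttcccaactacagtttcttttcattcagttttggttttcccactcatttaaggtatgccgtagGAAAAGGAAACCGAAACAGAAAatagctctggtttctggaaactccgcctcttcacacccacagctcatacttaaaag
Tap1, chr17:34187306-34187555, plus strand: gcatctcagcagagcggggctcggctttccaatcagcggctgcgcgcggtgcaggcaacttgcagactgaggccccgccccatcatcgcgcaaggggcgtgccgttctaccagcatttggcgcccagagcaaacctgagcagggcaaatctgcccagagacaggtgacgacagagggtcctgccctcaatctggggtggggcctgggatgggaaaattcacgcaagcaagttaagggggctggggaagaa
B2m, chr2:122147437-122147686, plus strand: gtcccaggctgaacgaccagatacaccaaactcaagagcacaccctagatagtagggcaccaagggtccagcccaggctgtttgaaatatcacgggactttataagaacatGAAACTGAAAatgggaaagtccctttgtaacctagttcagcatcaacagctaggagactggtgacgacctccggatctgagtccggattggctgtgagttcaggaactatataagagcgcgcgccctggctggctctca
H2-K1, chr17:34000348-34000597, minus strand: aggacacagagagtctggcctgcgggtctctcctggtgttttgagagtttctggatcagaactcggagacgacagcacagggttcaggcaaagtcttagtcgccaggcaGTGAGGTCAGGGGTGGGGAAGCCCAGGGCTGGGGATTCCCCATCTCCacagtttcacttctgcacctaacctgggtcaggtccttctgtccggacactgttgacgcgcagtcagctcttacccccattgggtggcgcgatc
H2-D1, chr17:35262844-35263093, plus strand: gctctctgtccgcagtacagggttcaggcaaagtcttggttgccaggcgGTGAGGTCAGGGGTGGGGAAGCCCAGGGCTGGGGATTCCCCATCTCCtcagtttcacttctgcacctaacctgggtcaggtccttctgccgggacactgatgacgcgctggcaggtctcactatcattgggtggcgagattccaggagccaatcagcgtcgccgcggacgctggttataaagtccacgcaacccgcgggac

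GAAANNGAAA stood in 2.98% of 32851 promoter regions of the same length, and Ifit1 and Ifit3 each held 2 matches. These letters were not in the windows of Irf1, Irf7 and Tap1. A match is a description of letters only. The H2-K1 and H2-D1 regions were identical at 91.0% of 177 aligned bases. Their reference transcripts were identical at 90.7% of 1472 aligned bases, so reads may have been divided between the 2 genes and their separate levels are uncertain. Class I heavy chain genes also differ strongly between mouse strains, and how far the AML12 alleles differ from the reference was not tested. The starts of Tap1 and of the neighbouring Psmb9, an immunoproteasome subunit gene read in the opposite direction, lay 226 bases apart.

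Values were FPKM, fragments scaled to the length of the gene and to the depth of the library. The numbers of reads behind them were recovered from the spacing of the values, and totals ran from 38290382 to 39772346 reads in the libraries of groups A and D and from 29112342 to 34909087 reads in those of B and C. The median of the 10615 tested genes was lower by 1.10 on the log2 scale in B than in A and lower by 1.13 in C than in D, so each difference is also given relative to that median. Of the markers of mature hepatocytes, Alb, Apob, Hnf4a and Fgb had between 0 and 10 reads in any library, so the labelled cell type was not read from these. Apoa1 averaged 0.00863 FPKM in A and 0 in D, against 1.86 in B and 1.11 in C. Trf averaged 0.00741 FPKM in A and 0 in D, against 0.718 in B and 0.537 in C. Krt8 and Krt18, keratins of epithelial cells, were between 54.6 and 401 FPKM, with lower means in B and C than in A and D. Apoe, an apolipoprotein, averaged 1.73 FPKM in A, 7.96 in B, 20.5 in C and 3.54 in D, and Cebpa, a hepatocyte transcription factor, was between 0.482 and 2.36 FPKM. The 7 immune cell markers in the table summed to between 0 and 0.0767 FPKM in groups A and D, 0.780 to 0.9496 FPKM in B and 1.54 to 1.9992 FPKM in C. Ptprc, which marks all leukocytes, had at most 16 reads in a library. Their part in the results was not tested.

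For the 7 tested genes the libraries numbered 2 were often the highest of their group, though in group C not for Irf1, Irf7 and Tap1. Isg15, B2m, H2-K1 and H2-D1 were highest in library 2 in all 4 groups, and all 7 tested genes were highest there in at least 3 groups. Among all tested genes, library 2 was highest in all 4 groups for 3.80%, library 1 for 1.21% and library 3 for 1.64%. The share of all genes that were highest in library 2 in at least 3 groups was not counted. Beyond the 9 genes, library 2 was highest in all 4 groups for 13 of 55 interferon-stimulated genes, among them Oas1a, Bst2 and Cxcl10. The same held for 6 of 31 class I and processing genes, among them Tapbp, Psmb8 and Psmb9. It held for 4 of 30 genes of nucleic acid sensing (Rigi, Cgas, Zbp1 and Ifi204) and for 0 of 22 receptor and signalling genes, where library 2 was highest in at least 3 groups for 6. This pattern was noticed after the values were seen and has no test. The tests of the 9 genes and the counts of the pathway lists are therefore also given without the libraries numbered 2.

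**Figure D1:**
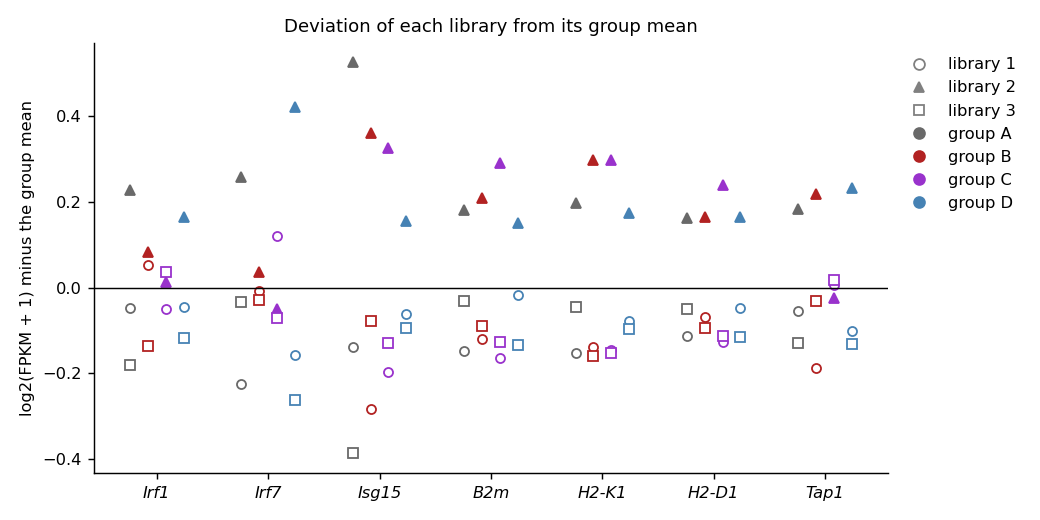
Deviation of each library from the mean of its group, as log2(FPKM + 1), for the 7 tested genes, with colour for the group and symbol for the library number. The filled triangles of library 2 lie above 0 throughout for Isg15, B2m, H2-K1 and H2-D1, with deviations between 0.15 and 0.53, and below 0 only for Irf7 and Tap1 in group C.

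Copper with elesclomol was accompanied by near loss of Tap1 and Irf7 transcripts and by lower Irf1 and Isg15, while B2m, H2-K1 and H2-D1 stayed between 482 and 2265 FPKM in every library with Cu/ES. Of the 7 genes with a mean of at least 1 FPKM, 4 fell in B vs. A (an adjusted p under 0.05 with a log2 fold change beyond 1 in size, limma with Benjamini-Hochberg adjustment over all tested genes) and 0 rose. Over all 10615 tested genes, 53.0% fell and 10.1% rose by the same thresholds. The same 4 genes fell in C vs. D, which shares no library with the first comparison and where 53.3% of all genes fell and 11.2% rose. A share of 4 in 7 is close to these backgrounds, so the count sets these genes apart from no others. The filter used the mean over all 12 libraries. Irf7 passed it only through groups A and D (means of 4.24 and 2.80 FPKM, against 0.0380 in B and 0.0523 in C). Tap1 did so too (32.8 and 22.2 FPKM, against 0.369 and 0.205). A lower level with Cu/ES was thus built into the testing of these genes. The libraries of B and A did not overlap for 92.9% of all tested genes, nor those of C and D for 92.0%, so that a lack of overlap was common. In bulk RNA, fewer cells of a kind and less RNA per cell cannot be told apart.

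**Figure D2:**
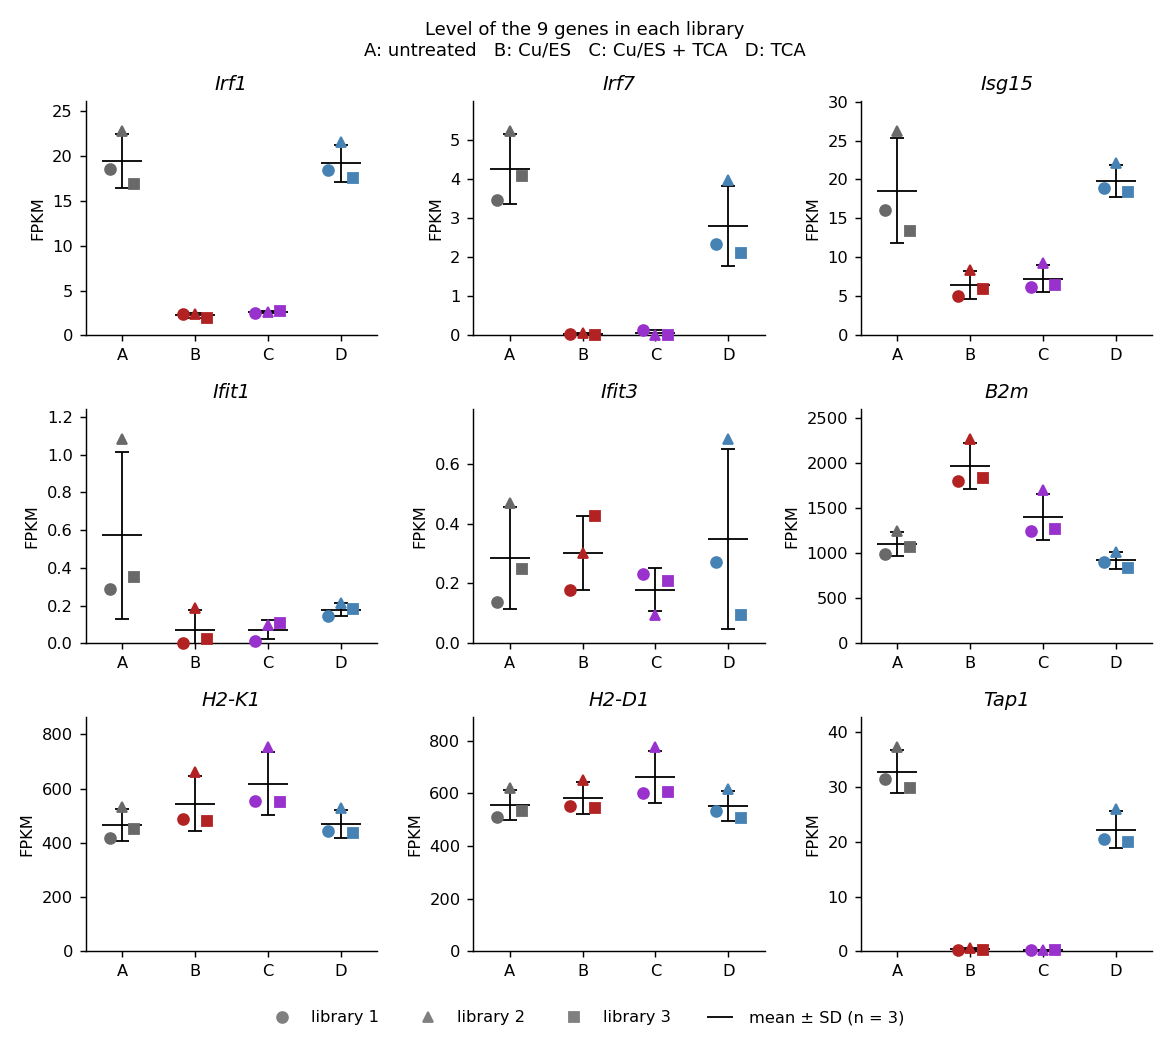
FPKM of the 9 genes in each library of groups A to D, on axes that start at 0, with the mean and SD of 3 libraries. Tap1 is between 29.8 and 37.3 FPKM in A and between 0.193 and 0.583 FPKM in B, while B2m lies between 992 and 1246 FPKM in A and between 1804 and 2265 FPKM in B.

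Among the transcription factors, Irf1 was at 18.6, 22.8 and 16.9 FPKM in libraries 1, 2 and 3 of group A and at 2.34, 2.41 and 1.93 FPKM in group B. It was at 18.5, 21.6 and 17.5 FPKM in group D and at 2.49, 2.65 and 2.71 FPKM in group C. All 6 libraries with Cu/ES thus lay below all 6 without it. Irf1 fell by 2.66 on the log2(FPKM + 1) scale in B vs. A (SE 0.11, adjusted p = 1.16e-11) and fell by 2.48 in C vs. D (SE 0.11, adjusted p = 2.18e-11). Relative to the median of all genes these differences were -1.56 and -1.35.

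Irf7, which amplifies type I interferon production, was at 3.44, 5.21 and 4.07 FPKM in group A and at 2.33, 3.97 and 2.09 FPKM in group D. It rested on 2, 4 and 1 reads in the libraries of group B and on 8, 1 and 0 reads in those of group C, against 255, 392 and 308 reads in A. Summed over the group and scaled to the library totals, reads in B were 0.902% of those in A (exact 95% interval 0.362% to 1.87%) and reads in C were 1.73% of those in D (0.787% to 3.30%). These intervals cover counting error only. Irf7 fell by 2.32 (SE 0.16, adjusted p = 2.85e-09) in B vs. A and fell by 1.82 (SE 0.16, adjusted p = 4.55e-08) in C vs. D on a scale that understates changes of low genes. Levels near 0 were thus read in all 6 libraries with Cu/ES.

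Isg15 was at 16.1, 26.2 and 13.4 FPKM in group A and at 5.01, 8.39 and 5.93 FPKM in group B. In group D it was at 18.9, 22.1 and 18.4 FPKM and in group C at 6.13, 9.24 and 6.47 FPKM, so that groups with and without Cu/ES did not overlap. Isg15 fell by 1.37 in B vs. A (SE 0.22, adjusted p = 2.88e-05) and fell by 1.34 in C vs. D (SE 0.22, adjusted p = 3.39e-05). Relative to the median of all genes the differences were only -0.27 and -0.22. With median-ratio scaling, which sets that median near 0, Isg15 no longer passed (-0.20, adjusted p = 0.416 in B vs. A, and -0.19, adjusted p = 0.442 in C vs. D).

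Ifit1 and Ifit3 lay under the expression filter and were not tested, so their values are descriptive. Ifit1 was at 0.287, 1.08 and 0.349 FPKM in group A (29, 111 and 36 reads), and at 0, 0.190 and 0.0246 FPKM in group B (0, 16 and 2 reads). In group C it had 1, 9 and 9 reads and in group D 15, 22 and 19 reads. Scaled to the totals, reads of Ifit1 in B were 12.6% of those in A (95% interval 7.29% to 20.5%), which includes the 111 reads of library 2. Ifit3 had 14, 49 and 26 reads in group A, 15, 26 and 35 in B, 18, 9 and 18 in C and 29, 72 and 10 in D, and its groups overlapped throughout. Both genes were close to the limit of detection in untreated cells.

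Of the class I genes, B2m was the most abundant of the 9 in every group. It was at 992, 1246 and 1075 FPKM in group A (1104 ± 129.6, SD, n = 3) and at 1804, 2265 and 1840.5 FPKM in group B (1969.8 ± 256). It was at 906, 1018 and 835 FPKM in group D and at 1242, 1701 and 1274 FPKM in group C. All libraries of B lay above all libraries of A, and all of C above all of D. B2m was higher by 0.83 in B vs. A (SE 0.13, adjusted p = 2.65e-05) and by 0.60 in C vs. D (SE 0.13, adjusted p = 5.28e-04), under the fold threshold both times. By adjusted p alone, 20.1% of all genes were higher in B than in A and 20.9% in C than in D.

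H2-K1 was at 417, 532 and 449 FPKM in group A and at 488, 661 and 482 FPKM in group B. The ranges overlapped, and the difference of 0.21 did not pass (SE 0.15, 95% interval -0.10 to 0.53, adjusted p = 0.172). In group D it was at 442, 527 and 437 FPKM and in group C at 553, 752 and 550.3 FPKM, with no overlap. H2-K1 was higher by 0.39 in C vs. D (SE 0.15, adjusted p = 0.0207), which was lost without library 2 of C, library 1 of D or library 3 of D (adjusted p = 0.108, 0.0630 and 0.0688) and with no filter (adjusted p = 0.0707).

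H2-D1 was at 512, 619 and 534 FPKM in group A and at 553, 650.4 and 543 FPKM in group B, a difference of 0.07 (SE 0.11, 95% interval -0.17 to 0.31, adjusted p = 0.563). In group D it was at 532, 617 and 508 FPKM and in group C at 600.5, 774 and 606 FPKM. The ranges overlapped in both comparisons. H2-D1 was higher by 0.25 in C vs. D (SE 0.11, adjusted p = 0.0476), a call lost without library 2 of C, library 1 of D or library 3 of D (adjusted p = 0.229, 0.113 and 0.164), and also with no trend, only the groups compared or no filter (adjusted p = 0.0597, 0.0679 and 0.120).

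Tap1 had the largest change of the 7 tested genes on the log2(FPKM + 1) scale. By reads Irf7 and Tap1 could not be ranked in B vs. A (0.902% and 1.13% of the reads in A). The interval of Irf7 (0.362% to 1.87%) contained that of Tap1. In C vs. D the order was the other way (1.73% and 0.920% of the reads in D), again with overlapping intervals. Tap1 was at 31.4, 37.3 and 29.8 FPKM in group A and at 0.193, 0.583 and 0.330 FPKM in group B. In group D it was at 20.5, 26.1 and 20.04 FPKM and in group C at 0.210, 0.184 and 0.220 FPKM. Tap1 fell by 4.63 in B vs. A (SE 0.12, adjusted p = 2.85e-13) and fell by 4.26 in C vs. D (SE 0.12, adjusted p = 3.82e-13). Reads in B were 1.13% of those in A (95% interval 0.918% to 1.37%) and reads in C were 0.920% of those in D (0.698% to 1.19%). Of all tested genes, 0.122% had a lower log2 fold change than Tap1 in B vs. A, and 0.367% in C vs. D.

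The direction of the class I chains depended on the scaling. Relative to the median of all genes, B2m, H2-K1 and H2-D1 were higher by 1.93, 1.31 and 1.17 in B vs. A and by 1.73, 1.51 and 1.38 in C vs. D. With median-ratio scaling all 3 passed both thresholds as higher in both comparisons (2.12, 1.498 and 1.35 in B vs. A, and 1.86, 1.64 and 1.51 in C vs. D), and over all genes 25.9% then rose and 25.5% fell in B vs. A, and 25.9% rose and 27.2% fell in C vs. D. With quantile normalization the same 3 genes were lower in B than in A (-0.14, -0.48 and -0.64) and in C than in D (-0.25, -0.26 and -0.44). With TPM scaling H2-K1 (-0.16) and H2-D1 (-0.30) were lower in B than in A, and H2-D1 (-0.04) was lower in C than in D. Tap1, Irf1 and Irf7 fell past both thresholds under all 3 of these scalings.

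**Figure D3:**
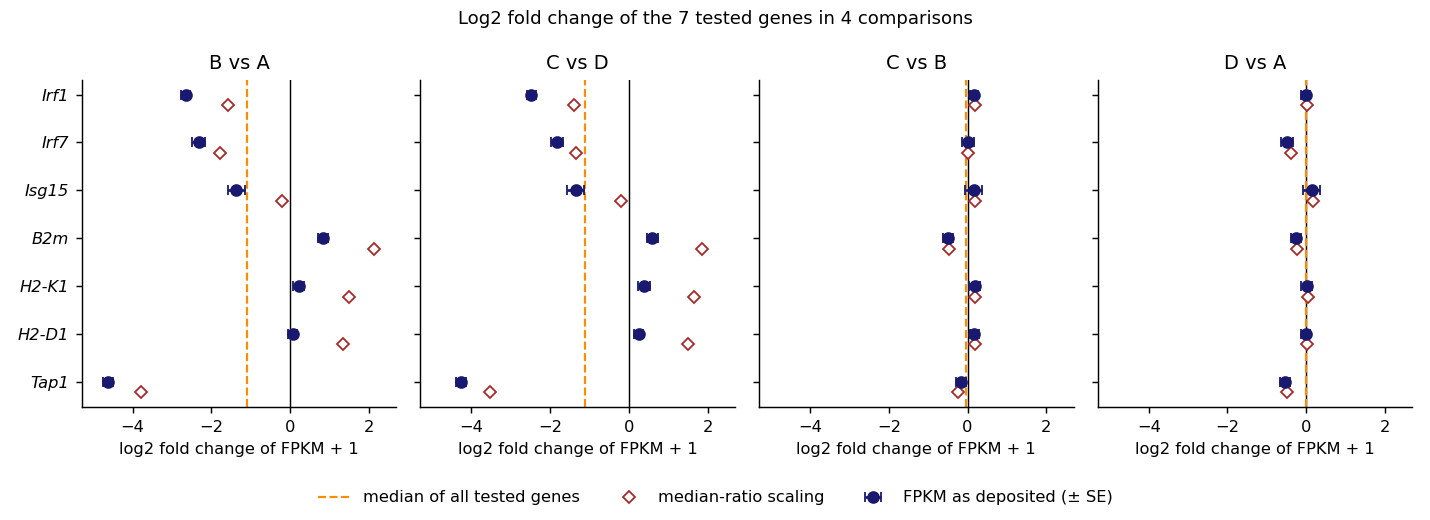
Log2 fold change of FPKM + 1 for the 7 tested genes in 4 comparisons, with SE as bars, beside the values after median-ratio scaling (open diamonds) and the median of all tested genes (dashed line). In B vs. A, Tap1 lies at -4.63 and Irf1 at -2.66, below the median of -1.10, and B2m lies at 0.83 above it, while in C vs. B and D vs. A all 7 genes lie within 0.55 of 0.

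Without the libraries numbered 2, the same 4 genes fell in B vs. A (Irf1 -2.58, Irf7 -2.21, Isg15 -1.28 and Tap1 -4.65) and in C vs. D (-2.40, -1.59, -1.43 and -4.13). B2m then differed by 0.82 in B vs. A and by 0.53 in C vs. D. H2-K1 passed the adjusted p in B vs. A without them (0.16, adjusted p = 0.0124) and H2-D1 did not (0.07, adjusted p = 0.224). In C vs. D both passed it without them (H2-K1 0.33, adjusted p = 1.37e-04, and H2-D1 0.21, adjusted p = 2.35e-03). Of all 10615 tested genes, 9861 passed the adjusted p in B vs. A and 9854 in C vs. D without these libraries.

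Ratios within a library do not depend on how libraries are scaled to each other. Tap1 stood at 7.53, 7.002 and 6.63 FPKM per 100 FPKM of H2-K1 in group A and at 0.0394, 0.0881 and 0.0686 in group B. The ratio was 4.63, 4.94 and 4.58 in D and 0.0379, 0.0245 and 0.0400 in C. The mean ratio was therefore 108-fold lower in B than in A and 138-fold lower in C than in D. Tap1 and Tap2, which form 1 transporter, were near equal in A, with 115, 102 and 99.97 FPKM of Tap1 per 100 FPKM of Tap2. In B there were 2.42, 5.59 and 3.48, so Tap1 had fallen further than Tap2.

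The light chain shifted against the heavy chain. B2m stood at 2.38, 2.34 and 2.39 FPKM per FPKM of H2-K1 in group A and at 3.69, 3.42 and 3.82 in B, with no overlap. It stood at 2.25, 2.26 and 2.32 in C and at 2.05, 1.93 and 1.91 in D. All 4 groups were separated on this ratio, with B highest, then A, C and D. H2-D1 per FPKM of H2-K1 was 1.19 ± 0.032 in A and 1.18 ± 0.022 in D, against 1.08 ± 0.085 in B and 1.07 ± 0.037 in C (SD, n = 3). An exact permutation test of 3 libraries against 3 cannot go below p = 0.1, and these ratios of Tap1, B2m and H2-D1 to H2-K1 reached it in both B vs. A and C vs. D.

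**Figure D4:**
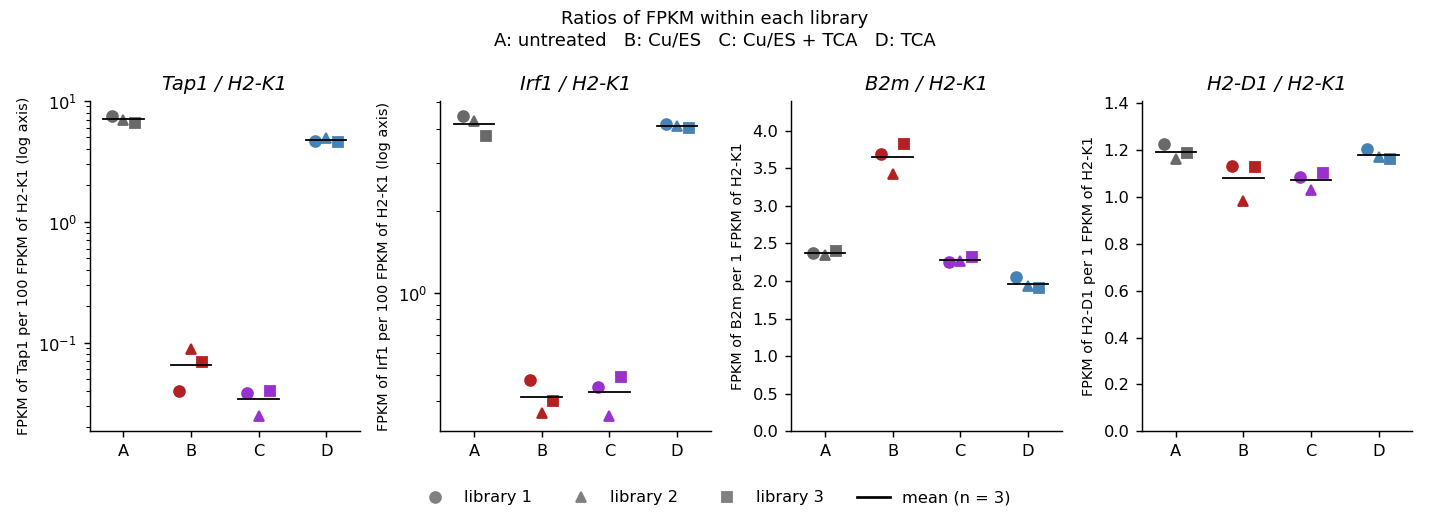
FPKM of Tap1 and Irf1 per 100 FPKM of H2-K1 (log axes), and of B2m and H2-D1 per FPKM of H2-K1 (axes from 0), in each library of groups A to D, with group means. Tap1 per 100 FPKM of H2-K1 averages 7.06 in A, 0.0654 in B, 0.0342 in C and 4.72 in D, and B2m per FPKM of H2-K1 averages 3.65 in B against 2.27 in C.

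The order of the 9 levels changed with Cu/ES. In groups A and D it ran from B2m through H2-D1 and H2-K1 to Tap1, then Irf1 and Isg15 in A or Isg15 and Irf1 in D, and then Irf7, with the Ifit genes last. In groups B and C, Isg15 came next after the class I chains with 6.44 and 7.28 FPKM, then came Irf1 with 2.22 and 2.62 FPKM and Tap1 with 0.369 and 0.205 FPKM. H2-D1 and H2-K1 overlapped as neighbours in each group, as did Irf1 and Isg15 in A and D, and Tap1 and Isg15 in D.

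The effect of TCA was compared in the presence of Cu/ES (C vs. B) and in its absence (D vs. A). In C vs. B, 0 of 7 genes passed both thresholds by limma or by limma-voom on the recovered reads, where 2.29% of all genes did by limma, and 1 of 7 had an unadjusted p under 0.05, where 51.0% of all genes did. That gene was B2m, lower by 0.49 in C than in B (difference -0.49, SE 0.13, adjusted p = 7.24e-03), and by adjusted p alone 23.6% of all genes were lower and 20.4% higher. All libraries of C lay below all libraries of B, and libraries did not overlap for 49.2% of all tested genes. Irf1 (0.17, 95% interval -0.07 to 0.41), Irf7 (0.02, -0.32 to 0.36), Isg15 (0.16, -0.30 to 0.62) and Tap1 (-0.17, -0.44 to 0.09) had differences that did not pass. Those of H2-K1 (0.19) and H2-D1 (0.18) did not pass either, but did so without the libraries numbered 2 (adjusted p = 0.0139 and 0.0468) and with the replicate block (adjusted p = 0.0334 and 0.0277). In these fits 5427 and 4897 of all 10615 tested genes passed the adjusted p.

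In D vs. A, 0 of 7 genes passed both thresholds by limma or by limma-voom, where 0.217% of all genes did by limma, and 2 of 7 had an unadjusted p under 0.05, where 35.8% of all genes did. Tap1 was lower in D, with all libraries of D below all of A (difference -0.55, SE 0.12, adjusted p = 7.24e-03). Irf7 was lower as well (difference -0.48, SE 0.16, adjusted p = 0.0434), although the libraries overlapped. By adjusted p alone 11.5% of all genes were lower, and libraries did not overlap for 44.2%. The Tap1 call was lost with a pseudocount of 0.1 (adjusted p = 0.133). The Irf7 call held under 5 of 16 alternatives only. It was lost without library 2 or 3 of A or library 1 or 3 of D (adjusted p = 0.151, 0.0851, 0.152 and 0.176), under all 3 other scalings, with a pseudocount of 0.1, with no filter, with only the groups compared and by limma-voom (adjusted p = 0.0691 to 0.248). Irf1 (-0.01, 95% interval -0.25 to 0.22), H2-K1 (0.01, -0.30 to 0.32), H2-D1 (-0.01, -0.25 to 0.24), Isg15 (0.14, -0.33 to 0.60) and B2m (-0.26, -0.54 to 0.02) had differences that did not pass. Without the libraries numbered 2, Isg15 (0.32, adjusted p = 0.0351) and B2m (-0.25, adjusted p = 0.0160) passed the adjusted p. Of all 10615 tested genes, 3176 passed it in that fit.

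The difference between these effects of TCA was tested as an interaction. By limma 0 of 7 genes passed the adjusted p, which 37.5% of all genes did, 0 passed both thresholds by limma or limma-voom, which 3.49% of all genes did by limma, and 1 of 7 had an unadjusted p under 0.05 (Irf7, 0.50, SE 0.22, adjusted p = 0.0947), where 46.8% of all genes did. Without the libraries numbered 2, Irf7 (0.63, adjusted p = 6.50e-03), Tap1 (0.52, adjusted p = 6.65e-03) and B2m (-0.29, adjusted p = 0.0239) passed the adjusted p. Of all 10615 tested genes, 4998 passed it in that fit. Leaving out library 2 of D alone was enough for Irf7 (0.71, adjusted p = 6.11e-03), and leaving out library 2 of B or of D was enough for Tap1 (adjusted p = 0.0407 and 0.0389). Irf7 and Tap1 were near 0 FPKM in B and C, where log2(FPKM + 1) leaves little room for a further fall. A fall in D vs. A then appears as a positive interaction, so these calls do not show a changed effect of TCA. By limma-voom the interaction was 0.14 for Irf7 (adjusted p = 0.949) and -0.13 for Tap1 (adjusted p = 0.903).

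The other genes of the pathway were read from 4 lists that hold none of the 9, chosen with earlier results of these data known. Over all tested genes, 53.0% fell and 10.1% rose in B vs. A, and 53.3% fell and 11.2% rose in C vs. D. With median-ratio scaling 25.5% fell and 25.9% rose in B vs. A, and 27.2% fell and 25.9% rose in C vs. D. The counts of each list stand against these shares. List genes could also pass the filter only through groups A and D, where a lower level with Cu/ES was built in. Dtx3l was one, with means of 7.05 FPKM in A and 5.76 in D, against 0.0183 in B and 0.0246 in C. Of 22 tested genes of interferon reception and signalling, 18 fell and 1 rose in B vs. A, and their median difference was -1.79, where all genes had -1.10. In C vs. D, 17 fell and 1 rose, with a median of -1.37. With median-ratio scaling 12 fell and 3 rose in B vs. A, and 9 fell and 3 rose in C vs. D. Of the receptor chains, Ifngr2 had a log2 fold change of -4.19 (SE 0.08, adjusted p = 2.41e-14), Ifngr1 of -3.90 (SE 0.10, adjusted p = 1.95e-13) and Ifnar1 of -3.74 (SE 0.07, adjusted p = 3.34e-14) in B vs. A. Ifnar1 was at 15.3, 16.7 and 14.9 FPKM in A and at 0.225, 0.258 and 0.246 FPKM in B. These 3 fell also in C vs. D (-4.05, -3.90 and -3.67). The 1 that rose in both was Pias4, a SUMO ligase, from 23.5 ± 0.61 FPKM in A to 62.3 ± 10.6 FPKM in B (log2 fold change 1.36, SE 0.11, adjusted p = 1.19e-08). It was named after its values were seen.

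Of 30 tested genes of nucleic acid sensing and IRF activation, 19 fell and 1 rose in B vs. A (median -1.60), and 20 fell and 0 rose in C vs. D (median -1.71, limma). With median-ratio scaling 11 fell and 5 rose in B vs. A, and 14 fell and 2 rose in C vs. D. Over all genes the shares that fell were 53.0% and 53.3%, and 25.5% and 27.2% with median-ratio scaling. Rigi, the cytosolic RNA sensor, was at 24.9 ± 2.18 FPKM in A and 1.73 ± 0.22 FPKM in B and fell by 3.25. Ikbke, a kinase that activates IRF factors (-3.15), and Mavs, the adaptor of RNA sensors (-3.09), also fell. In C vs. D, Rigi (-3.63), Irf3, the factor that starts interferon production (-3.20), and Samhd1, which degrades nucleotides needed by viruses (-3.06), fell. The 1 gene that rose was Zbp1, a sensor of Z-form nucleic acids, at 0.338, 2.15 and 0.698 FPKM in A and 2.10, 4.23 and 2.63 FPKM in B (log2 fold change 1.01, adjusted p = 0.0102), with overlapping libraries and with the call lost without library 1 of A or library 2 of B (adjusted p = 0.0570 and 0.0526). It was named after its values were seen.

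Of 55 tested interferon-stimulated genes, 46 fell and 1 rose in B vs. A (median -1.69), and 44 fell and 0 rose in C vs. D (median -1.79). With median-ratio scaling 25 fell and 5 rose in B vs. A, and 28 fell and 6 rose in C vs. D. The shares of all genes that fell were 53.0% and 53.3%, and 25.5% and 27.2% with median-ratio scaling. Lgals3bp, a secreted galectin-binding protein, was at 42.2, 59.8 and 39.1 FPKM in A and at 2.29, 1.90 and 1.63 FPKM in B, and fell by 4.01. Ube2l6, an enzyme that conjugates the Isg15 protein (-3.74), and Parp9, an ADP-ribosyltransferase family member (-3.57), also fell. In C vs. D, Lgals3bp (-4.19), Ifitm1, which blocks virus entry (-3.49), and Ube2l6 (-3.40) fell. The 1 gene that rose was Cxcl10, a chemokine for T cells, at 3.01, 3.87 and 1.93 FPKM in A and 5.93, 9.51 and 6.76 FPKM in B (log2 fold change 1.10, SE 0.28, adjusted p = 1.72e-03), named after its values were seen.

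Of 31 tested genes of class I structure and antigen processing, 19 fell and 2 rose in B vs. A (median -1.54), and 20 fell and 2 rose in C vs. D (median -1.43). Of all tested genes, 53.0% and 53.3% fell in these comparisons. With median-ratio scaling 8 fell and 5 rose in B vs. A, and 13 fell and 6 rose in C vs. D. With that scaling 25.5% and 27.2% of all genes fell, so the share that fell in B vs. A was close to that of all genes. Of the other heavy chain genes of class I, all 4 that were tested fell in B vs. A with the FPKM as deposited, unlike H2-K1 and H2-D1. H2-Q4 went from 74.2 ± 13.2 to 25.2 ± 7.51 FPKM (-1.54), H2-M3 from 18.6 ± 0.77 to 3.31 ± 0.25 FPKM (-2.18), H2-T22 from 37.6 ± 6.87 to 14.8 ± 0.86 FPKM (-1.28) and H2-T23 from 65.4 ± 8.04 to 30.6 ± 0.47 FPKM (-1.06). In C vs. D, H2-Q4 (-1.38) and H2-M3 (-2.71) passed both thresholds, while H2-T22 (-0.47) and H2-T23 (-0.54) passed the adjusted p alone. With median-ratio scaling H2-Q4 and H2-T22 no longer passed in B vs. A and H2-T23 was higher (0.19), and in C vs. D H2-T22 (0.74) and H2-T23 (0.70) were higher. These 4 were named after their values were seen, and reads shared with H2-K1 and H2-D1 leave their levels uncertain. With quantile normalization H2-K1 (-0.48) and H2-D1 (-0.64) were lower in B vs. A too. Heavy chain genes under the filter were not tested and went both ways. H2-Q1 had 15 reads in A and 113 in B, H2-Q2 had 0 and 39, and H2-Q10 had 0 and 8. H2-T24 had 108 reads in A and 6 in B. Fcgrt, the neonatal Fc receptor with a class I fold, fell (-3.57), and so did the immunoproteasome subunits Psmb9 (-3.57) and Psmb8 (-2.95). Psmb9, the divergent neighbour of Tap1, was at 10.99, 19.98 and 14.9 FPKM in A and at 0.172, 0.805 and 0.127 FPKM in B. In C vs. D these 3 fell as well (-3.52, -3.51 and -3.18). The 2 that rose in both comparisons, named after their values were seen, were Hspa5, the endoplasmic reticulum chaperone BiP, from 765 ± 58.1 FPKM in A to 1584 ± 158 FPKM in B, and Cd1d1, a class I-like lipid-presenting molecule, from 1.57 ± 0.31 to 5.77 ± 1.31 FPKM.

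**Figure D5:**
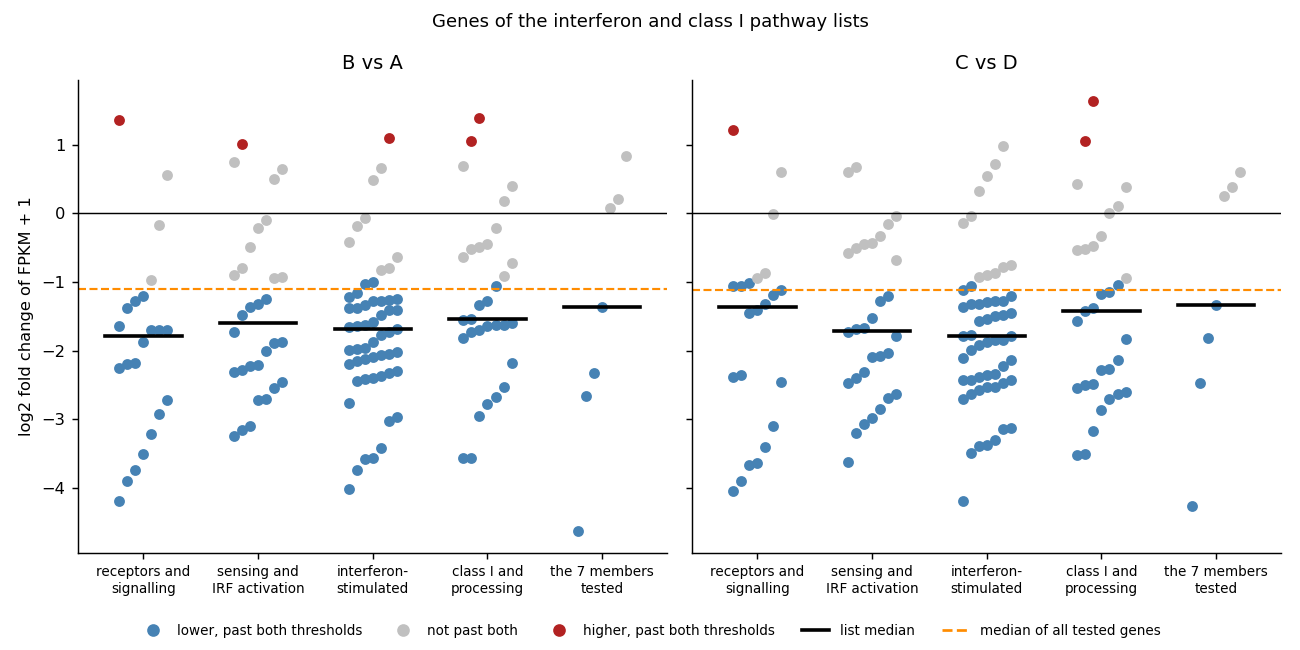
Log2 fold change of FPKM + 1 of each tested gene of 4 pathway lists and of the 7 tested genes of the 9, in B vs. A and C vs. D, coloured by whether both thresholds were passed, with list medians (bars) and the median of all tested genes (dashed line). List medians lie between -1.37 and -1.79, below the medians of all genes of -1.10 and -1.13, and 3 of the 7 tested genes, B2m, H2-K1 and H2-D1, lie above 0.

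Without the libraries numbered 2, the counts of genes that fell in B vs. A were 18 of 22 for reception and signalling, 19 of 30 for sensing, 44 of 55 for interferon-stimulated genes and 18 of 31 for class I genes. In C vs. D they were 14, 20, 43 and 20, and in all 4 lists at most 1 gene rose in either comparison. Of all 10615 tested genes, 5588 fell and 1068 rose in B vs. A without these libraries, and 5586 fell and 1193 rose in C vs. D.

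Of 14 genes of MHC class II and immune cells in the table, only Cd74, the invariant chain, and Cd14, a lipopolysaccharide co-receptor, were tested. Cd14 fell in B vs. A (-1.40, adjusted p = 3.54e-07) and in C vs. D (-1.91, adjusted p = 9.72e-09), and Cd74 fell in C vs. D (-1.15, adjusted p = 8.73e-07). With median-ratio scaling neither passed both thresholds in either comparison (Cd14 -0.42 and -0.996).

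In C vs. B, 0 of 22 receptor and signalling genes passed both thresholds. Of 30 sensing genes 1 fell and 1 rose, while 2 of 55 interferon-stimulated genes and 2 of 31 class I and processing genes fell. Over all tested genes 2.29% passed both. Ifitm1 (-1.40, adjusted p = 9.90e-07) and Ifitm3 (-1.23, adjusted p = 6.13e-06) fell. Ifitm3 was at 204, 232 and 214 FPKM in B and at 82.5, 111 and 85.2 FPKM in C. The proteasome activator subunits Psme1 (-1.11, adjusted p = 1.40e-05) and Psme2 (-1.03, adjusted p = 1.04e-04) fell. Rnaseh2c, a subunit of the enzyme that removes ribonucleotides from DNA, fell by 1.62 (adjusted p = 1.96e-07). Ifi205, an interferon-inducible DNA-binding protein, rose by 1.10 (adjusted p = 9.43e-05), from 1.17 ± 0.13 to 3.67 ± 0.48 FPKM. In D vs. A, 0 genes of the 4 lists passed both thresholds by limma, with 7 of 22, 5 of 30, 10 of 55 and 9 of 31 at an unadjusted p under 0.05, where 35.8% of all genes were, and limma-voom called 1 interferon-stimulated gene.

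Across the 12 libraries, the genes whose profiles lay closest to those of Irf1, B2m and H2-K1 were found by the root mean square difference of their log2(FPKM + 1) values, each taken relative to the mean of group A. The libraries share the 4 treatments, so these are descriptions. Closest to Irf1 were Epas1 (0.079, Pearson r = 0.999), Lancl2 (0.097) and Birc3 (0.0997), each between 5.81 and 7.95 FPKM in A and between 0.102 and 0.382 FPKM in B. Closest to B2m were Mcm7 (0.132, r = 0.956), Nup62 (0.148) and the noncoding RNA Zfas1 (0.150). Closest to H2-K1 was H2-D1 (0.119, r = 0.969), followed by Slc39a4 (0.134) and Polr1d (0.154).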

How the data were processed

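RNA sequencing of AML12 cells gave 4 groups of 3 libraries (12 in all). The authors deposited FPKM values for 24824 genes, and their libraries were made from polyadenylated RNA extracted with TRIzol and sequenced on an Illumina NovaSeq. The submitters' processing notes name fastp, HISAT2, HTSeq and the build GRCm39, without versions. The annotation and strand setting are not given in the sources used here.

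Numbers of reads were recovered as whole multiples of the smallest step of each gene's FPKM, within 0.02 reads, for all 22212 genes above 0 in at least 2 libraries. The 10615 genes whose mean reached 1 FPKM were kept, log2(FPKM + 1) was fitted with limma 3.58.1 in R 4.3.3 (trend, 8 residual degrees of freedom, all groups in 1 fit), and p-values, two-sided, were adjusted by the Benjamini-Hochberg method. A gene passed both thresholds when its adjusted p was under 0.05 and its log2 fold change exceeded 1 in size, the cut-offs of the study's methods. The comparisons were B vs. A, C vs. D, C vs. B, D vs. A and the interaction (C minus B) minus (D minus A). FPKM holds no counts, so a count test was not the main result. The fit was tested on simulated data for B vs. A, where 200 of 200 changed genes among 10862 were recovered with 18 false calls. The simulation drew all groups from group A levels, changed genes up and down alike, and was scored by adjusted p alone. In the data 9777 of 10615 genes passed the adjusted p in B vs. A, with a median difference of -1.10. The simulation therefore does not test the fit under so broad a shift.

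The 9 genes and all lists were chosen with earlier results of these data known. Named from each list were up to 3 genes with the largest absolute change past both thresholds and no overlap, and the 3 genes most like Irf1, B2m and H2-K1. Alternatives were a pseudocount of 0.1, no filter or a mean FPKM of at least 5, TPM, median-ratio and quantile scaling, no trend, only the groups compared, a replicate block, limma-voom on recovered reads, and each library left out. The fit without any library numbered 2 was chosen after seeing the data. Tables were made with pandas 2.3.3 and scipy 1.17.1 under Python 3.11.15, and plots with matplotlib 3.10.9.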

Additional observations from a re-analysis of the deposited data

Results flagged for a closer look

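In 8 genes of the pathway lists the effect of TCA differed between cells with and without Cu/ES, past both thresholds of the interaction term of limma with Benjamini-Hochberg adjustment over all tested genes. The difference of effects for Rnaseh2c was -1.61 on the log2 scale (SE 0.14, adjusted p = 8.39e-06). That of Ifitm1 was -1.46 (SE 0.15, adjusted p = 2.50e-05), with 126 ± 18.1 FPKM in A, 30.1 ± 2.11 in B, 10.8 ± 1.14 in C and 131 ± 13.4 in D. That of Ifitm3 was -1.40 (SE 0.17, adjusted p = 7.93e-05). Of the processing genes, Psmb10 had -1.16 (SE 0.21, adjusted p = 8.78e-04), Psme2 had -1.15 (SE 0.21, adjusted p = 1.03e-03) and Psme1 had -1.07 (SE 0.18, adjusted p = 4.87e-04). Ccl5, a chemokine, had -1.09 (SE 0.29, adjusted p = 9.13e-03). In these 7 the value in C vs. B lay below that in D vs. A. Isg20, an RNA exonuclease named after its values were seen, went the other way, with a difference of effects of 1.05 (SE 0.15, adjusted p = 1.61e-04), 0.83 in C vs. B and -0.23 in D vs. A. Without the libraries numbered 2 the lists again held 1 gene higher and 7 lower. Past both thresholds in this comparison were 3.49% of all tested genes.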

How the results depend on the processing

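The replicate numbers were not taken to pair the libraries. Deviations from the group means correlated at r = 0.125 on average between libraries of the same number (from -0.171 to 0.579, over 0.1 in 11 of 18 pairs) and at -0.059 between other libraries, and 7 of 12 libraries correlated best with one of their own number, which is a hint from the data and not from the design. With the replicate block, 1070 genes still rose and 5622 fell in B vs. A, and 4 of the 7 tested genes passed both thresholds there and in C vs. D. Under the block the adjusted p (limma) was 7.10e-03 for H2-K1 in B vs. A, 0.0334 and 0.0277 for H2-K1 and H2-D1 in C vs. B, 0.0187 for B2m in D vs. A and 0.0468 for the Tap1 interaction. Of all 10615 tested genes, 9825, 4897, 2609 and 4190 passed the adjusted p in these 4 comparisons under the block.

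For the 7 tested genes over 5 comparisons, 544 values under alternatives kept direction and side of the threshold of adjusted p, 36 changed sign, 18 newly passed and 27 no longer passed. Where no cause is given, the cause was not tested. Under quantile normalization B2m, H2-K1 and H2-D1 were -0.14, -0.48 and -0.64 in B vs. A and -0.25, -0.26 and -0.44 in C vs. D, Cd14 was 0.0012 and Hspa5 -0.0061 in B vs. A, H2-T22 was 0.16 in C vs. D, H2-K1 was -0.024 in D vs. A and the Isg15 interaction was -0.019. With TPM scaling H2-K1 and H2-D1 were -0.16 and -0.30 in B vs. A, and H2-D1 was -0.036 in C vs. D. With median-ratio scaling H2-T23 was 0.19 in B vs. A, Cd74, H2-T22 and H2-T23 were 0.0049, 0.74 and 0.70 in C vs. D, and Irf1 and H2-D1 were 0.025 and 0.032 in D vs. A. With limma-voom Irf7 was -0.50 in C vs. B and the Tap1 interaction -0.13. Without replicate 2 in every group Irf1 was 0.021 in D vs. A and the Isg15 interaction -0.14. Leaving out 1 library at a time gave ranges that crossed 0 for H2-D1 in B vs. A (-0.013 to 0.15), Irf7 (-0.043 to 0.053) and Isg15 (-0.0025 to 0.34) in C vs. B, Irf1 (-0.10 to 0.10), Isg15 (-0.057 to 0.40), H2-K1 (-0.076 to 0.11) and H2-D1 (-0.089 to 0.074) in D vs. A, and the Isg15 interaction (-0.24 to 0.22).

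The number of genes past both thresholds fell from 6692 to 4089 in B vs. A and from 6851 to 4280 in C vs. D at a mean FPKM of at least 5, where fewer genes (6878) were tested. In C vs. B it was 243, against 703 with a pseudocount of 0.1, 386 with TPM, 154 with quantile normalization and 780 with limma-voom. In D vs. A it was 23, against 95, 59, 29 and 104, with 14 at a mean FPKM of at least 5 and 15 with median-ratio scaling. The interaction gave 370, against 878, 624, 304 and 874, and 560 without replicate 2 in every group. The 47 interferon-stimulated genes that passed in B vs. A became 30 with median-ratio scaling, 24 with quantile normalization and 20 at a mean FPKM of at least 5. The interaction could not be fitted with the compared groups alone. With FPKM near 0 the change of Irf7, Ifit1 and Ifit3 was limited by reads, and 3 libraries per group limited every interval.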
